A study of Homo sapiens with 10 samples.

Results

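Collagen genes were followed through RAS-induced senescence in IMR90, a widely used line of fibroblasts from human fetal lung. They were also followed through the lowering of METTL3 and the addition of METTL3 at levels far above control. The members are the protein-coding rows of the count table whose symbol is COL, a number, A and a number, and 44 of the 57736 rows meet that rule. There were 5 groups of 2 samples. Control cells and senescent control cells differed by the retrovirus, which was empty or carried RAS, whose oncogenic form stops fibroblasts from dividing. Both of these groups are labelled siCTR, read here as a control siRNA, and the senescent control titles say control knockout. The METTL3 knockout group was senescent cells in which METTL3, the catalytic subunit of the enzyme that writes m6A on RNA, had been targeted. The wild type knock-in and the mutant knock-in were senescent knockout cells that also received wild type or mutant METTL3. Knockout is the word of the sample titles, and the protocol text describes siRNA. Cells were seeded and transfected on day 4, transfected again and infected with the lentivirus on the next day, and harvested 48 h after that, per the labels' protocols. The protocol text names METTL14 as the targeted gene while the titles name METTL3. The METTL3 mutant is not named in the labels, and neither is an empty lentivirus for senescent control. Labels of the knockout group end in vec, read here as an empty vector. The knockout may thus differ from senescent control by a lentivirus as well as by METTL3, and the part of a lentivirus was not tested. Nothing states that the 2 replicates of a group were separate cultures, so p-values reflect the spread among these samples alone, and that spread may be technical. In bulk RNA, fewer cells of a kind and less RNA per cell cannot be told apart.

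Collagens are secreted proteins of the extracellular matrix whose chains wind into a helix, and a chain that lacks its partners is usually degraded inside the cell. Fibrillar collagens (types I, II, III, V, XI, XXIV and XXVII) form the cable-like fibrils of connective tissue, and type I is the main product of a lung fibroblast. Type IV collagen forms the sheet of the basement membrane, type VI forms beaded filaments beside cells, and the fibril-associated collagens sit on the surface of fibrils. The other members form networks (VIII and X), anchor skin to its basement membrane (VII), span the cell membrane (XIII, XVII, XXIII and XXV) or carry sugar chains in basement membrane zones (XV and XVIII).

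The 6 type IV genes lie as 3 pairs, and in each pair the genes start back to back and are read away from each other. The stretches between the starts are printed because the values below show where the genes of a pair moved together and where they did not. RefSeq sequence of the build GRCh38.p14 is given on the plus strand, 5′ to 3′. Capitals mark the CCAAT box (CCAAT or ATTGG) and the GC box (GGGCGG or CCGCCC), each searched on both strands, and the TATA box (TATAAA or TTTATA) was searched in the same way. The stretch between COL4A1 and COL4A2 (chr13:110307158-110307283) is 126 bases long:
COL4A1_COL4A2: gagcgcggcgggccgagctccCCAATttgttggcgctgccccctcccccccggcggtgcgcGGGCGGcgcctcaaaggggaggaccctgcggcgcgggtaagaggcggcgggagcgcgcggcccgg
It holds 1 CCAAT box and 1 GC box and no TATA box, and 80.2% of its bases are G or C. The stretch between COL4A3 and COL4A4 (chr2:227164489-227164623) is 135 bases long:
COL4A3_COL4A4: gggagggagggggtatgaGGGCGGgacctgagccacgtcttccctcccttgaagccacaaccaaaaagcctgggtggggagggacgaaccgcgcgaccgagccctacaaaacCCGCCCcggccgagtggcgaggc
It holds 2 GC boxes and neither of the other motifs. COL4A5 and COL4A6 start 379 bases apart, and the 250 of these bases held in the promoter table (chrX:108439588-108439837) read:
COL4A5_COL4A6: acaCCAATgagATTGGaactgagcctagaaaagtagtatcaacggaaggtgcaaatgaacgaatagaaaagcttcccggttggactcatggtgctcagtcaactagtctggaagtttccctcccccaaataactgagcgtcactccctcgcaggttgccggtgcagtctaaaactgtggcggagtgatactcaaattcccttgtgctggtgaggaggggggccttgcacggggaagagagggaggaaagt
They hold 2 CCAAT boxes and neither of the other motifs. Among the 35116 promoters of the table, cut to the same 126 bases, 21.1% held a CCAAT box, 34.6% a GC box and 5.9% a TATA box. Cut to 250 bases, the shares were 32.0%, 42.6% and 10.7%. A promoter was matched for 32 of the 44 members, and within 250 bases before the start 11 of them held a CCAAT box, 21 a GC box and 7 a TATA box (34.4%, 65.6% and 21.9%, against 37.0%, 46.2% and 13.0% of 27305 genes). COL1A1, COL1A2 and COL3A1 were among the members without a matched promoter, so the shares of the members leave them out. A match is a description of letters and not a site.

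Libraries held 16293975 to 23570266 counts. METTL3 stood at 72.7 and 81.4 CPM (counts scaled to a common library size by TMM) in control, 47.3 and 57.3 in senescent control and 23.2 and 28.9 in the knockout, a log2 difference of -1.005 (SE 0.15) between the last 2 groups (edgeR quasi-likelihood test, adjusted p = 0.000872). It measured 58384.9 and 58124.9 CPM in the wild type knock-in and 114107 and 147774 in the mutant knock-in, far above control. It took 5.87% and 5.86% of all counts in the wild type knock-in and 11.3% and 14.2% in the mutant knock-in. HRAS, a RAS gene, measured 14.8 and 14.6 CPM in control, 61.0 and 61.3 in senescent control and 40.8 and 39.5 in the knockout. In the wild type knock-in it stood at 48.7 and 43.4 and in the mutant knock-in at 29.8 and 23.7. Senescent groups thus differed in HRAS as well as in METTL3, and the part of HRAS in the results was not tested. Genes with at least 1 count numbered 21764 to 22844 in the libraries of the first 3 groups, 24270 and 24501 in the wild type knock-in and 25265 and 25582 in the mutant knock-in. The 2 control libraries differed from each other more than the replicates of any other group, with a mean chi-square of 34.1 per gene against 5.19 to 7.99, and 23 of the 33 collagen genes tested were higher in control replicate 1. Replicate shifts were one-sided in other groups too, with 25 of 33 higher in replicate 1 of the mutant knock-in and 3 of 33 in replicate 1 of the knockout. All 11 fibroblast markers reached 1 CPM in control, and their summed level ran from 18144 to 22037 CPM there, 14370.4 to 15364 in senescent control and 11431 to 11838.5 in the mutant knock-in. KRT5 and SFTPC (epithelial), CLDN5 (endothelial) and CD3E (immune) were at 0 in all 10 libraries. Other members of these lists were present: 3 of 7 epithelial markers reached 1 CPM in each group, and KRT19 measured 21.1 and 19.3 CPM in control, 2.14 and 3.56 in senescent control and 10.04 and 9.80 in the knockout. Summed epithelial markers ran from 32.2 to 36.4 CPM in control, 10.8 to 11.1 in senescent control and 8.83 to 9.37 in the mutant knock-in. Summed endothelial markers did not exceed 2.69 CPM outside the mutant knock-in, where they reached 6.08 and KDR and TIE1 were higher than in the knockout (log2 2.601, SE 0.38, and 1.48, SE 0.44). Smooth muscle and pericyte markers summed to 234 to 310.1 CPM in control, 201.9 to 207 in senescent control and 147 to 157 in the mutant knock-in. Summed immune markers went from 66.8 to 74.0 CPM in control to 157 to 163 in the wild type knock-in and 170.1 to 177 in the mutant knock-in, and the part of these markers in the results was not tested.

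Collagen RNA made up 1.80% and 1.40% of all counts in control, 1.10% and 1.16% in senescent control, 1.17% and 1.27% in the knockout, 0.933% and 0.962% in the wild type knock-in and 0.791% and 0.665% in the mutant knock-in. With METTL3 counts left out of the total, the knock-in shares were 0.992% and 1.02% (wild type) and 0.892% and 0.775% (mutant), so both mutant libraries remained the lowest and both control libraries the highest. Fibrillar genes held 0.824% and 0.606% of control counts, 0.422% and 0.478% of senescent control counts, and 0.605% and 0.671% of knockout counts, so the knockout overlapped control. They held 0.405% and 0.414% in the wild type knock-in and 0.291% and 0.228% in the mutant knock-in. COL1A1, COL1A2 and COL3A1 together made up 41.5% and 38.3% of the collagen counts of control, 31.9% and 34.3% of senescent control, 43.99% and 45.1% of the knockout and 28.5% and 25.6% of the mutant knock-in. These shares were not tested.

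**Figure D1:**
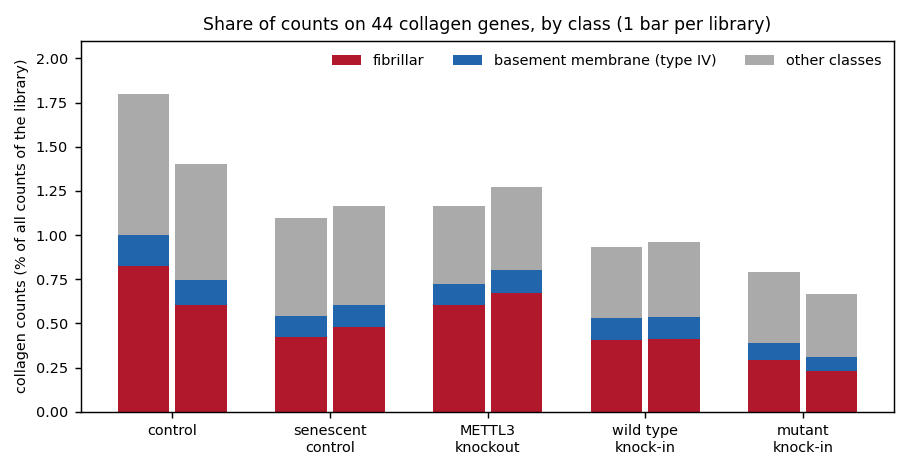
Share of each library's counts (%) on the 44 collagen genes, 1 bar per library, with the colours of each bar standing for fibrillar, type IV and other collagens. The control libraries reach 1.80% and 1.40%, the mutant knock-in libraries 0.791% and 0.665%, and the fibrillar part of the knockout bars (0.605% and 0.671%) is larger than that of the senescent control bars (0.422% and 0.478%).

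Of the 44 members 23 had a group mean of at least 1 CPM in every group, 9 were under 1 CPM in 1 to 4 groups and 12 were under 1 CPM in all 5 groups. Compared per kilobase of transcript, COL1A1 (518 CPM per kb) and COL1A2 (504) led in control, ahead of COL6A3 (372), COL6A1 (246), COL6A2 (238), COL4A1 (140.4), COL12A1 (116), COL4A2 (103) and COL3A1 (71.9). The order of COL1A1 and COL1A2 differed between the 2 control libraries. COL1A2 stood first in the other 4 groups, at 293, 442, 333 and 184 CPM per kb in senescent control, the knockout and the wild type and mutant knock-ins, and in senescent control it did not stand apart from COL1A1 (288). In the mutant knock-in COL1A1 stood at 126, beside COL6A1 (159.7), COL6A3 (135) and COL6A2 (133), and its order against COL6A3 and COL6A2 differed between the 2 mutant libraries. These transcript lengths come from a reference annotation and not from the authors' own, so the order between genes is approximate.

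The count test kept 33 members, and 11 had too few counts in the table to be tested. Some of the 33 (COL4A3, COL21A1, COL25A1, COL10A1, COL9A2 and COL8A2 among them) passed the filter only through the groups where they were high. That favours calls of these genes in comparisons with those groups, and the counts below include them. Among the rises against the knockout, COL4A3 and COL21A1 are such genes in both knock-ins, and COL25A1 in the mutant knock-in. In senescent control against control, COL8A2 and COL9A2 are such genes among the falls and COL10A1 among the rises. Called means an adjusted p under 0.05 (edgeR quasi-likelihood test over 16760 genes), and rose and fell are used of calls only. In senescent control against control 8 of 33 rose and 13 fell (63.6% called, against 45% of all genes tested, 19.7% higher and 25.3% lower), with a median log2 difference of -0.20 (-0.23 without COL4A3, at 0 in both groups) against -0.03 over all genes. In the knockout against senescent control 6 rose and 5 fell (33.3%, against 15.8%, 7.17% higher and 8.62% lower), with medians of 0.00 and 0.01. In the wild type knock-in against the knockout 3 rose and 7 fell (30.3%, against 33.3%, 18.5% higher and 14.8% lower), with medians of -0.12 and 0.02. In the mutant knock-in against the knockout 7 rose and 11 fell (54.5%, against 48.4%, 24.1% higher and 24.3% lower), with medians of -0.15 and 0.01. In the mutant against the wild type knock-in 3 rose and 4 fell (21.2%, against 12.5%, 5.16% higher and 7.39% lower), with medians of 0.05 and 0.00. In the knockout against control 12 rose and 10 fell (66.7%, against 46.4%, 19.7% higher and 26.7% lower), with medians of 0.02 and -0.04. Both knock-in comparisons use the same knockout libraries, and control, senescent control and knockout libraries each serve in several comparisons, so these counts are not independent. COL17A1 was called in none.

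Several of these counts moved with single libraries. Without senescent control replicate 1 the knockout count was 5, without knockout replicate 1 or 2 it was 7, and from a fit of those 2 groups alone it was 17. The mutant against wild type count of 7 became 2 and 0 without wild type replicate 1 or 2, and 4 and 0 without mutant replicate 1 or 2. In the 2 fits with a count of 0 (edgeR), 16 and 11 collagen genes had an unadjusted p under 0.05, and DESeq2 over all 10 samples called 7. That comparison gave 12 without a filter on low counts and 15 from the 2 groups alone. In the knockout against control, the count of 22 was 11 without knockout replicate 2, and under upper-quartile scaling its split of 12 higher and 10 lower became 13 and 7. Below, a call that was lost when 1 library was left out is followed by that library and the log2 value without it.

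**Figure D2:**
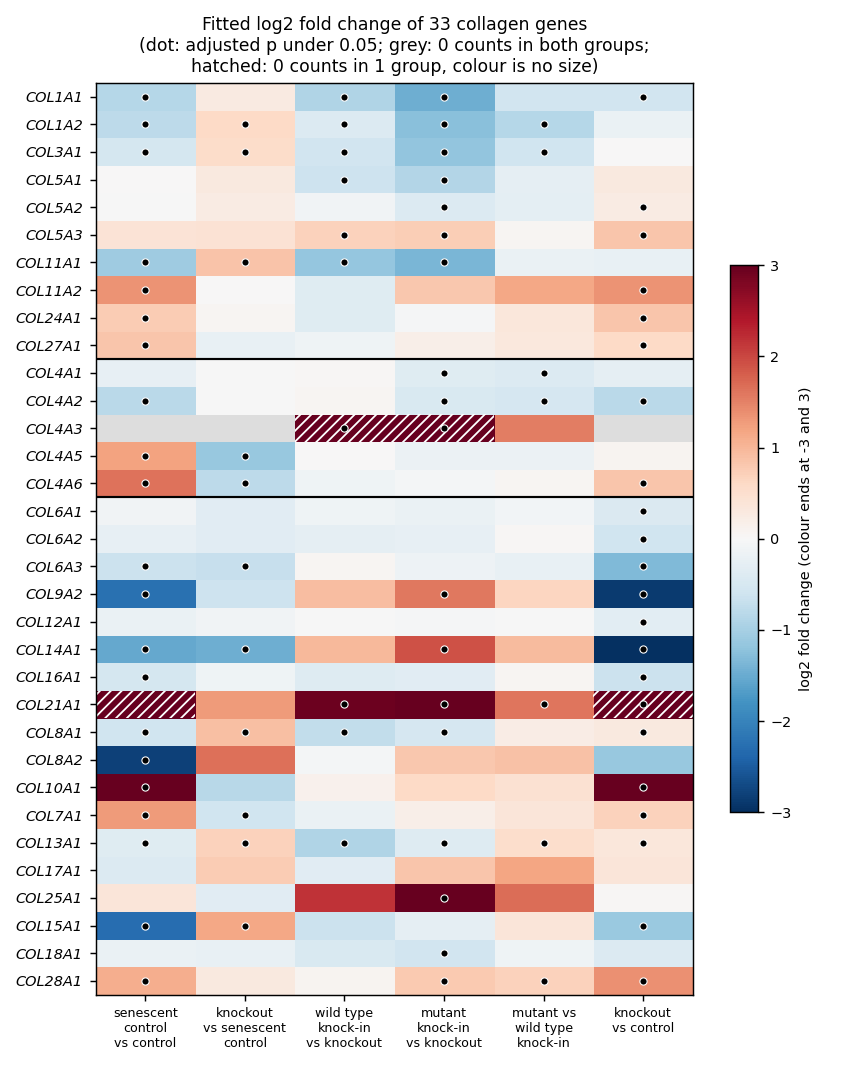
Fitted log2 difference (colour, from -3 in blue to 3 in red) of the 33 tested collagen genes (rows, in the order fibrillar, type IV, other) in the 6 comparisons (columns), with a dot where the adjusted p is under 0.05. Grey cells have 0 counts in both groups and hatched cells 0 counts in 1 group, where the colour is no measure of size; COL1A1, COL1A2, COL3A1 and COL11A1 are blue in both columns of a knock-in against the knockout, and COL4A5 and COL4A6 are red in the first column and blue in the second.

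COL1A1, COL1A2, COL3A1 and COL11A1 were lower in senescent control, COL11A2, COL24A1 and COL27A1 were higher, and the major chains were lowest in the mutant knock-in. COL1A1, the alpha 1 chain of type I collagen, measured 4243 and 2733 CPM in control, 1809 and 2059.95 in senescent control, 2203 and 2485 in the knockout, 1221 and 1275 in the wild type knock-in and 979.7 and 709 in the mutant knock-in. Both control libraries were above all others, and both mutant libraries below all others. The knockout libraries lay above those of senescent control, but COL1A1 was not called in that comparison. It fell 1.80-fold in senescent control (log2 -0.85, SE 0.20), 1.88-fold in the wild type knock-in against the knockout (-0.91, SE 0.20) and 2.78-fold in the mutant knock-in against the knockout (-1.47, SE 0.20), with edgeR adjusted p of 0.00608, 0.00595 and 0.000211. The first of these was lost without control replicate 1 (-0.48) or senescent control replicate 1 (-0.73). Its fall in the knockout against control (-0.57, SE 0.20) was lost without control replicate 1 (-0.21), knockout replicate 1 (-0.46) or knockout replicate 2 (-0.63).

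COL1A2, the alpha 2 chain of type I, measured 3035 and 2424 CPM in control, 1463 and 1709.7 in senescent control, 2251 and 2535 in the knockout, 1798 and 1805 in the wild type knock-in and 1098 and 898 in the mutant knock-in. The knockout and control libraries overlapped, and those of senescent control and the mutant knock-in lay below both. It fell 1.72-fold in senescent control (log2 -0.78, SE 0.13) and 2.398-fold in the mutant knock-in against the knockout (-1.26, SE 0.13), and both calls held in every alternative tried. It rose 1.51-fold in the knockout against senescent control (0.59, SE 0.13), a call lost without senescent control replicate 1 (0.49) or knockout replicate 2 (0.50). Against the knockout the wild type knock-in was lower by a log2 difference of -0.41 (SE 0.13), lost without knockout replicate 2 (-0.35) or wild type replicate 1 (-0.41) or 2 (-0.46). Mutant against wild type knock-in gave -0.85 (SE 0.13), lost without wild type replicate 2 (-0.83) or mutant replicate 2 (-0.71).

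COL3A1, the chain of type III collagen, which is found with type I in elastic tissues, measured 429.6 and 368 CPM in control, 247 and 306 in senescent control, 379 and 431 in the knockout, 269 and 271 in the wild type knock-in and 198 and 159.55 in the mutant knock-in. Senescent control and both knock-ins lay below all control and knockout libraries. Its log2 differences were -0.53 (SE 0.13) in senescent control against control and 0.55 (SE 0.13) in the knockout against senescent control. The former was lost without control replicate 1 (-0.39) or senescent control replicate 1 (-0.35), and the latter without senescent control replicate 1 (0.41) or knockout replicate 2 (0.45). It fell 1.4995-fold in the wild type and 2.27-fold in the mutant knock-in against the knockout (-0.58 and -1.18, SE 0.13 for both; edgeR adjusted p 0.00532 and 2.99e-05), in every alternative tried. Its fall of -0.60 (SE 0.13) from wild type to mutant knock-in was lost without wild type replicate 1 (-0.62) or 2 (-0.57) or mutant replicate 2 (-0.44).

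Type V chains, which join type I fibrils and limit their width, differed from one another. COL5A1 measured 283 and 215 CPM in control, 239.5 and 259 in senescent control, 294 and 320.1 in the knockout, 196 and 206 in the wild type knock-in and 183 and 152 in the mutant knock-in. The senescent control libraries lay inside the control range, and COL5A1 fell only against the knockout, 1.53-fold in the wild type (-0.61, SE 0.13) and 1.83-fold in the mutant knock-in (-0.87, SE 0.13). COL5A2 measured 458 and 441 CPM in control, 418 and 476 in senescent control, 513 and 549 in the knockout, 485 and 498 in the wild type knock-in and 412 and 391 in the mutant knock-in. Its lowest library was a mutant one and its highest a knockout one, and the fall of the mutant knock-in against the knockout was 1.32-fold (-0.40, SE 0.09). Against control the knockout was higher by 0.24 (SE 0.09), a call lost without knockout replicate 1 (0.32) or 2 (0.22). COL5A3, a minor chain, ran from 1.21 to 1.92 CPM in control and senescent control, 2.31 and 2.61 in the knockout and 3.50 to 4.45 in the knock-ins, with calls of 0.68 and 0.73 (SE 0.22) for the wild type and mutant knock-in against the knockout that DESeq2 did not make. The former was lost without knockout replicate 1 (0.57) or 2 (0.74) or wild type replicate 1 (0.50), and the latter without knockout replicate 1 (0.62) or 2 (0.79) or mutant replicate 2 (0.55).

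Type XI chains, which nucleate fibrils in cartilage and are also made by some fibroblasts, moved apart. COL11A1 measured 21.2 and 27.4 CPM in control, 10.1 and 13.0 in senescent control, 20.0 and 21.7 in the knockout, 9.15 and 9.56 in the wild type knock-in and 8.47 and 7.73 in the mutant knock-in. All control and knockout libraries were at 20.0 CPM or more and all others at 13.0 or less. It fell 2.096-fold in senescent control (log2 -1.07, SE 0.15), rose 1.80-fold in the knockout against senescent control (0.85, SE 0.15), and fell 2.23-fold and 2.58-fold in the wild type and mutant knock-in against the knockout (-1.16 and -1.37, SE 0.16), and these 4 calls held in every alternative tried (edgeR adjusted p at most 0.0470). COL11A2 was under 1 CPM in 4 groups, at 0.306 and 0.134 in control, 0.548 and 0.594 in senescent control, 0.635 and 0.5215 in the knockout, 0.427 and 0.466 in the wild type knock-in and 1.13 and 0.887 in the mutant knock-in. Its higher level in senescent control (1.35, SE 0.50) and in the knockout against control (1.36, SE 0.51) was not called by DESeq2. Without control replicate 1 both were 2.06. The former call was also lost without control replicate 2 (0.93) or senescent control replicate 1 (1.43) or 2 (1.32), and the latter without control replicate 2 (0.94) or knockout replicate 1 (1.24) or 2 (1.53).

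The newer fibrillar types went the other way in senescent cells. COL24A1 ran from 4.86 to 6.49 CPM in control and from 7.51 to 11.0 in the other 8 libraries, and COL27A1 from 21.3 in both control libraries to between 27.7 and 41.5 elsewhere. Neither gene's control libraries overlapped any other library. COL24A1 rose 1.70-fold (log2 0.76, SE 0.17) and COL27A1 1.77-fold (0.82, SE 0.12) in senescent control. Over the 10 fibrillar genes tested, 3 rose and 4 fell in senescent control against control (70% called, against 45% of all genes) and 3 rose and 0 fell in the knockout against senescent control (30%, against 15.8%). Against the knockout, 1 rose and 5 fell in the wild type knock-in (60%, against 33.3%) and 1 rose and 6 fell in the mutant knock-in (70%, against 48.4%). The 3 that rose in the knockout were COL1A2, COL3A1 and COL11A1, of which only COL11A1 kept its call whichever of the 4 libraries was left out. Median log2 differences of the 10 in these comparisons were 0.00, 0.29, -0.38 and -0.64, against -0.03, 0.01, 0.02 and 0.01 over all genes. COL2A1, the cartilage chain of type II, had 0 to 4 counts per library.

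**Figure D3:**
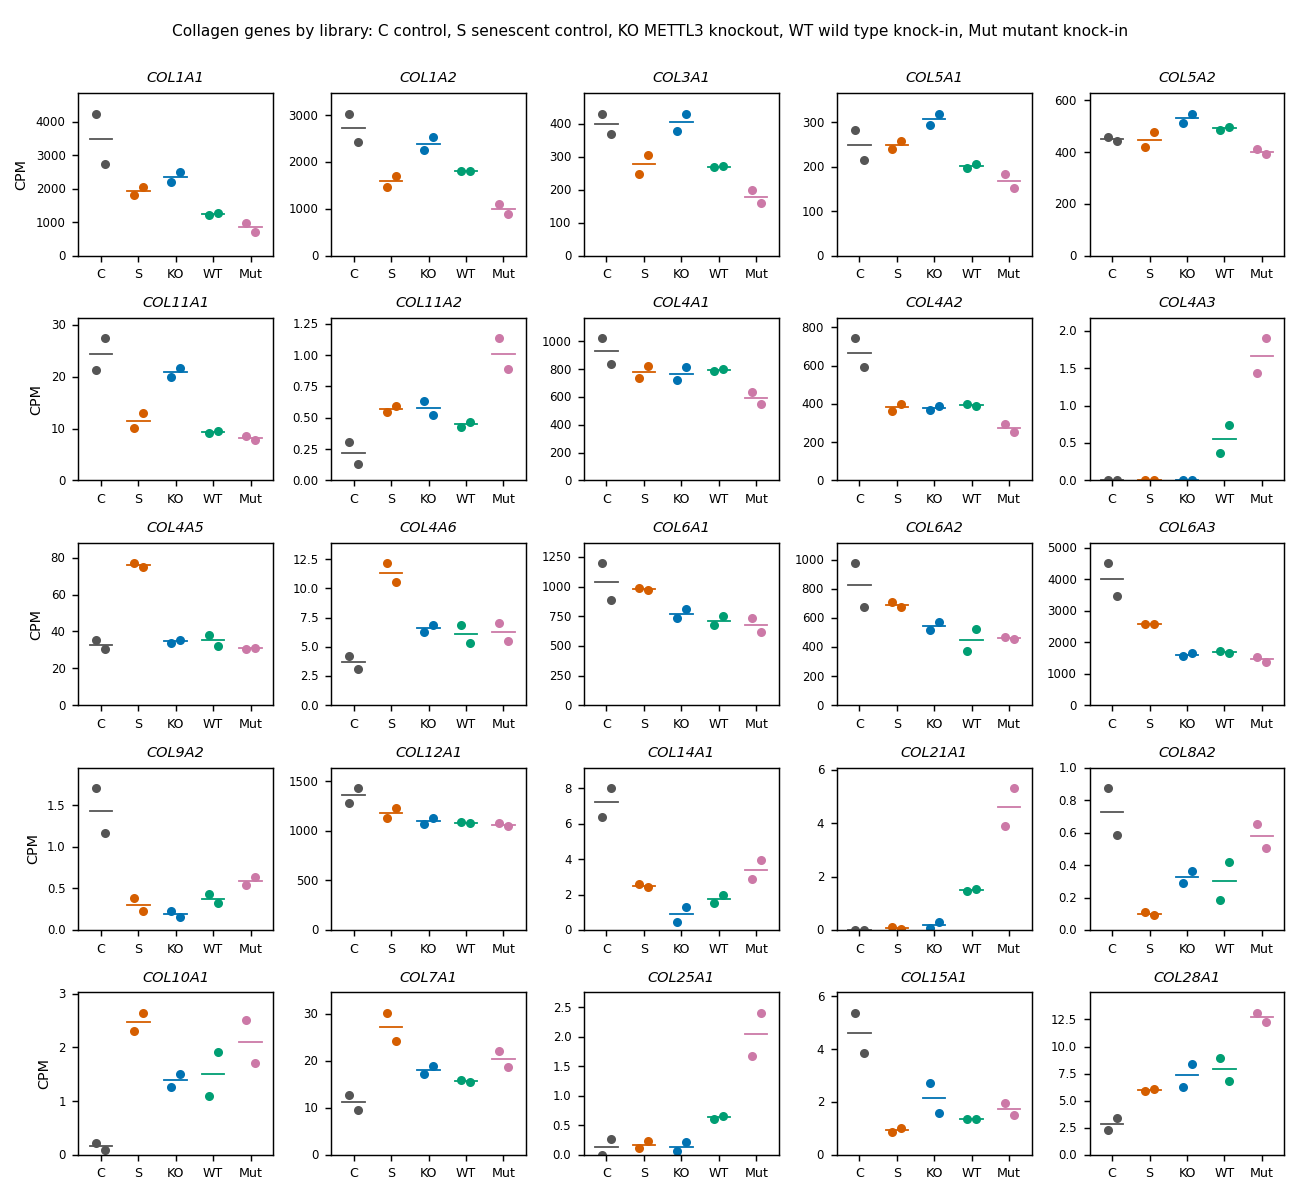
Levels in CPM (linear axes from 0, 1 scale per gene) of the 25 collagen genes described sample by sample, with a point per library and a line at the mean of the 2 libraries of each group. The COL1A1, COL1A2, COL3A1 and COL11A1 panels are lower in senescent control than in control, higher in the knockout than in senescent control, and lower in both knock-ins than in the knockout. For COL1A1 the step from senescent control to the knockout was not called. COL4A5 peaks in senescent control at 77.0 and 75.1 CPM, and COL4A3, COL21A1 and COL25A1 have their highest points in the mutant knock-in.

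Chains that share a fibril did not keep their proportions, read as ratios per kilobase of transcript within each library. COL1A1 to COL1A2, which pair as 2 copies to 1 in type I collagen, stood at 1.12 and 0.907 in control, 0.994 and 0.969 in senescent control, 0.787 and 0.788 in the knockout, 0.546 and 0.568 in the wild type knock-in and 0.718 and 0.635 in the mutant knock-in. The senescent control ratios lay inside the control range and all 6 later ratios below it. COL5A1 to COL5A2 was 0.408 to 0.517 in the 6 libraries of control, senescent control and the knockout and 0.325 to 0.372 in the 4 knock-in libraries. These ratios are a description, and no test was run on them.

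**Figure D4:**
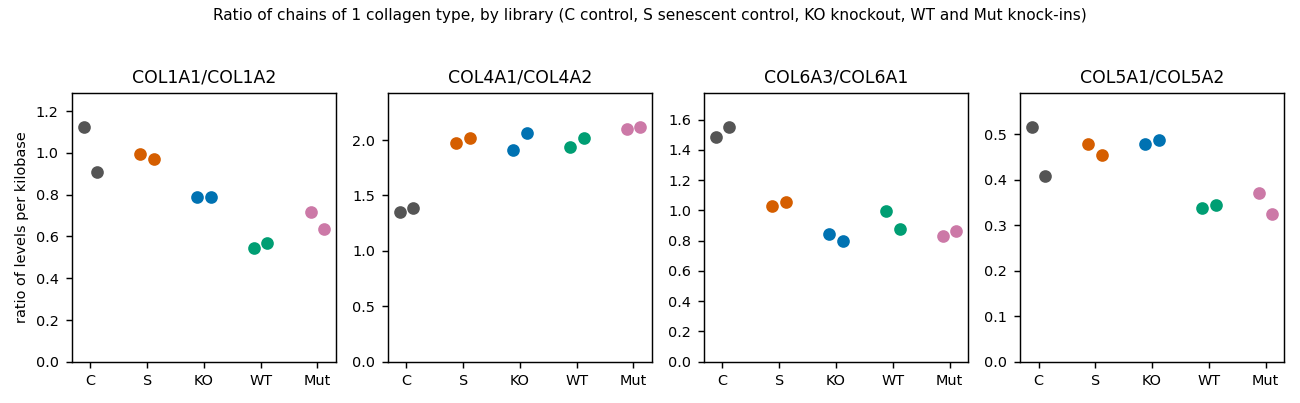
Ratio of 2 chains' levels per kilobase (vertical axes from 0, no unit), 1 point per library, for COL1A1/COL1A2, COL4A1/COL4A2, COL6A3/COL6A1 and COL5A1/COL5A2. COL1A1/COL1A2 is lowest in the wild type knock-in (0.546 and 0.568), while COL4A1/COL4A2 is lowest in control (1.35 and 1.39) and between 1.91 and 2.12 in the other libraries.

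Type IV collagen showed a different pattern in each of its gene pairs. COL4A1, the alpha 1 chain of the common basement membrane network, measured 1021 and 837 CPM in control, 733 and 825 in senescent control, 719 and 814 in the knockout, 784 and 797 in the wild type knock-in and 635 and 549 in the mutant knock-in. COL4A2, its partner chain, measured 743 and 591 in control, 364 and 400.4 in senescent control, 369 and 386 in the knockout, 397 and 387 in the wild type knock-in and 296 and 254 in the mutant knock-in. For both genes the control libraries were above and the mutant libraries below all others. COL4A2 fell 1.74-fold in senescent control (log2 -0.80, SE 0.12, edgeR adjusted p 0.000162), in every alternative tried, and COL4A1 did not pass the test there. Per kilobase the ratio of COL4A1 to COL4A2 was 1.35 and 1.39 in control and 1.91 to 2.12 in the other 8 libraries. In the mutant knock-in against the knockout both fell, COL4A2 by -0.46 (SE 0.12) and COL4A1 by -0.37 (SE 0.12), the latter lost without knockout replicate 2 (-0.31) or mutant replicate 2 (-0.33). Against the wild type knock-in their falls were -0.51 and -0.42 (SE 0.12 for both). The COL4A2 fall was lost without wild type replicate 1 (-0.51) or 2 (-0.51) or mutant replicate 2 (-0.40), and the COL4A1 fall without wild type replicate 1 (-0.45) or 2 (-0.38), mutant replicate 1 (-0.54) or 2 (-0.31), or under upper-quartile scaling (-0.37).

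COL4A5 and COL4A6, the chains of the type IV network of smooth muscle and some epithelia, were highest in senescent control. COL4A5 measured 35.3 and 30.3 CPM in control, 77.0 and 75.1 in senescent control, 33.9 and 35.3 in the knockout, 38.1 and 32.1 in the wild type knock-in and 30.6 and 31.1 in the mutant knock-in. Senescent control was the sole group apart, since the other 8 libraries lay between 30.3 and 38.1 CPM. It rose 2.32-fold in senescent control (log2 1.21, SE 0.10) and fell 2.20-fold in the knockout against senescent control (-1.14, SE 0.10), with edgeR adjusted p of 2.05e-06 and 2.23e-05, in every alternative tried. COL4A6 measured 4.20 and 3.14 CPM in control, 12.2 and 10.5 in senescent control, 6.29 and 6.88 in the knockout, 6.83 and 5.36 in the wild type knock-in and 7.04 and 5.51 in the mutant knock-in. It rose 3.08-fold in senescent control (1.62, SE 0.19), and the knockout, which lay between control and senescent control, was 1.79-fold above control (0.84, SE 0.20). The fall from senescent control to the knockout (-0.78, SE 0.18) was lost without senescent control replicate 1 (-0.68) or knockout replicate 1 (-0.73) or 2 (-0.85). Both genes of this pair thus rose and fell in the same 2 comparisons.

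COL4A3 and COL4A4, the chains of the kidney and lung alveolar network, were near the limit of detection. COL4A3 had 0 counts in all 6 libraries of control, senescent control and the knockout, which allows up to 0.0822 CPM in the knockout group at a floor of 3 counts over the group. It measured 0.366 and 0.746 CPM in the wild type knock-in and 1.43 and 1.90 in the mutant knock-in (22 and 54 counts). Its measured level was 7.07-fold the knockout floor in the wild type knock-in and 20.2-fold in the mutant knock-in. Both knock-ins were called against the knockout (edgeR adjusted p 0.00467 and 0.000258). The floor takes in counting error alone, and these folds leave out the counting error of the 22 and 54 counts. PCR copies could not be separated from independent molecules. COL4A4 was too low to test, at 0 to 0.115 CPM in the first 3 groups, 0.305 and 0.280 in the wild type knock-in and 0.716 and 0.380 in the mutant knock-in. Both genes had their highest libraries in the mutant knock-in, the group that also had the most genes with a count and the most METTL3 reads, and the part of these in the result was not tested.

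**Figure D5:**
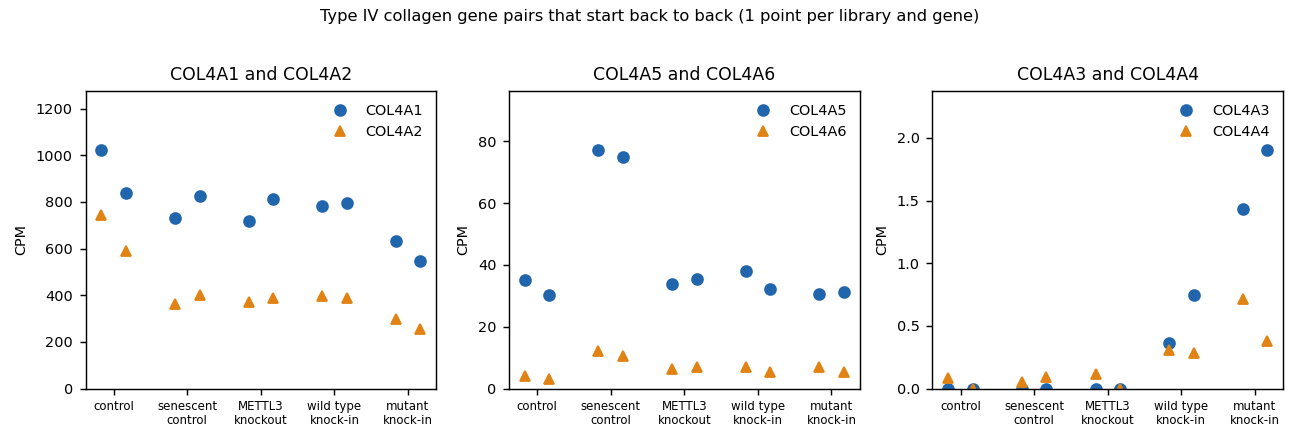
CPM of the type IV gene pairs (vertical axes from 0), 1 circle or triangle per library and gene, in the 5 groups. COL4A1 and COL4A2 are highest in control, COL4A5 (77.0 and 75.1 CPM) and COL4A6 (12.2 and 10.5 CPM) in senescent control, and COL4A3 and COL4A4 in the mutant knock-in, where neither exceeds 1.90 CPM.

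Of the type VI chains, COL6A3 fell in senescent control and again in the knockout, and COL6A1 and COL6A2 passed the test in neither step. COL6A3, the large chain that completes the type VI trimer, measured 4513 and 3483 CPM in control, 2566 and 2590.4 in senescent control, 1562 and 1652 in the knockout, 1707 and 1668 in the wild type knock-in and 1545 and 1358 in the mutant knock-in. Control, senescent control and the remaining 6 libraries formed 3 ranges that did not overlap. It fell 1.55-fold in senescent control (log2 -0.63, SE 0.12) and a further 1.60-fold in the knockout (-0.68, SE 0.12), which left the knockout 2.49-fold below control (-1.31, SE 0.12, edgeR adjusted p 4.73e-06), and the 3 calls held in every alternative tried. COL6A1 measured 1197 and 885 CPM in control, 984 and 968 in senescent control, 731 and 814 in the knockout, 674 and 749 in the wild type knock-in and 734 and 619.6 in the mutant knock-in. COL6A2 measured 975 and 673 in control, 707 and 672 in senescent control, 518 and 572 in the knockout, 374 and 526 in the wild type knock-in and 469.7 and 454 in the mutant knock-in. Senescent control overlapped control for both, and each was called only in the knockout against control. The call of COL6A1 (-0.43, SE 0.14) was lost without control replicate 1 (-0.18) or knockout replicate 1 (-0.33) or 2 (-0.47), and that of COL6A2 (-0.60, SE 0.18) without control replicate 1 (-0.29) or knockout replicate 1 (-0.50) or 2 (-0.63). The ratio of COL6A3 to COL6A1 per kilobase was 1.49 and 1.55 in control, 1.03 and 1.06 in senescent control and 0.8003 to 0.998 in the other 6 libraries. COL6A5 and COL6A6, chains that can replace alpha 3, had 1 to 3 and 3 to 8 counts in the knock-in libraries and 0 in the other 6.

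Among the fibril-associated collagens the abundant COL12A1 moved little and the scarce members moved far. COL12A1, which coats type I fibrils under tension, measured 1282 and 1435 CPM in control, 1129 and 1233 in senescent control, 1071 and 1126 in the knockout, 1088 and 1076 in the wild type knock-in and 1082 and 1049 in the mutant knock-in. It was called once, in the knockout against control (-0.31, SE 0.09), and lost that call without knockout replicate 1 (-0.24) or 2 (-0.31). COL14A1, a relative of COL12A1 found in quiescent dermis and tendon, measured 6.39 and 8.02 CPM in control, 2.58 and 2.42 in senescent control, 0.462 and 1.30 in the knockout, 1.53 and 1.96 in the wild type knock-in and 2.86 and 3.93 in the mutant knock-in. No other library reached the control range. It fell 2.88-fold in senescent control (log2 -1.53, SE 0.27) and rose 3.75-fold from the knockout to the mutant knock-in (1.91, SE 0.36), calls kept in every alternative tried, though the second was 2.82 without knockout replicate 2. The fall from senescent control to the knockout (-1.47, SE 0.37) was lost without senescent control replicate 1 (-1.42) or 2 (-1.51) or knockout replicate 1 (-0.94), and was -2.42 without knockout replicate 2.

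COL9A2, a cartilage chain, measured 1.71 and 1.16 CPM in control, 0.384 and 0.228 in senescent control, 0.231 and 0.156 in the knockout, 0.427 and 0.326 in the wild type knock-in and 0.537 and 0.633 in the mutant knock-in. Control was the sole group above 1 CPM, and the fall in senescent control was 4.70-fold (log2 -2.23, SE 0.43). Its rise in the mutant knock-in against the knockout (1.57, SE 0.56) was not called by DESeq2 and was lost without knockout replicate 1 (1.83) or 2 (1.28) or mutant replicate 1 (1.68) or 2 (1.39). COL21A1, a fibril-associated chain of blood vessel walls, had 0 counts in both control libraries and stood at 0.110 and 0.0457 CPM in senescent control, 0.0577 and 0.313 in the knockout, 1.46 and 1.54 in the wild type knock-in and 3.88 and 5.32 in the mutant knock-in. It rose 7.64-fold in the wild type (log2 2.93, SE 0.53) and 23.3-fold in the mutant knock-in (4.54, SE 0.47) against the knockout, which had 1 and 6 counts, with edgeR adjusted p of 0.00146 and 1.95e-05. The sizes are loose: without knockout replicate 1 the log2 differences were 2.22 and 3.82, and without knockout replicate 2 they were 4.53 and 6.13. The rise from wild type to mutant knock-in (1.61, SE 0.34) was lost without wild type replicate 1 (1.55) or 2 (1.67) or mutant replicate 2 (1.37). The 7 counts of the knockout against 0 in control gave a call, lost without knockout replicate 2. That level was 2.89-fold the control floor of 3 counts, with the counting error of the 7 counts left out. COL16A1, a fibril-associated chain of several tissues, ran from 23.0 to 29.9 CPM in control and 11.5 to 20.3 elsewhere. It fell in senescent control (-0.53, SE 0.16), a call lost without control replicate 1 (-0.31) or senescent control replicate 2 (-0.34).

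Network-forming and anchoring collagens differed in direction in senescent control, where COL8A1 and COL8A2 fell and COL10A1 and COL7A1 rose. COL8A1, a short chain of vessel and wound matrix, measured 107 and 108 CPM in control, 69.3 and 73.6 in senescent control, 127 and 139 in the knockout, 78.2 and 81.5 in the wild type knock-in and 97.6 and 89.4 in the mutant knock-in. No 2 groups overlapped. It fell 1.51-fold in senescent control (log2 -0.59, SE 0.09), rose 1.86-fold in the knockout against senescent control (0.90, SE 0.09) and fell 1.67-fold and 1.42-fold in the wild type and mutant knock-in against the knockout (-0.74 and -0.51, SE 0.09), with edgeR adjusted p of at most 0.0137 in every alternative tried. Its rise in the knockout against control (0.30, SE 0.09) was lost without knockout replicate 2 (0.27). COL8A2 was under 1 CPM in all groups, at 0.875 and 0.582 in control, 0.110 and 0.0913 in senescent control, 0.289 and 0.365 in the knockout, 0.183 and 0.420 in the wild type knock-in and 0.656 and 0.507 in the mutant knock-in. Its fall in senescent control was 6.93-fold (-2.79, SE 0.61), from 20 and 13 counts in control to 2 and 2. COL8A2 passed the filter through control, which favours this call.

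COL10A1, the chain of hypertrophic cartilage, measured 0.219 and 0.0896 CPM in control, 2.30 and 2.65 in senescent control, 1.27 and 1.51 in the knockout, 1.10 and 1.91 in the wild type knock-in and 2.51 and 1.71 in the mutant knock-in. Every senescent library exceeded both control libraries, and the rise in senescent control was 15.4-fold (log2 3.95, SE 0.46, edgeR adjusted p 2.53e-05; 4.71 without control replicate 1). COL7A1, the anchoring fibril of the skin, measured 12.8 and 9.50 CPM in control, 30.2 and 24.3 in senescent control, 17.3 and 18.9 in the knockout, 15.9 and 15.5 in the wild type knock-in and 22.0 and 18.6 in the mutant knock-in. It rose 2.44-fold in senescent control (1.29, SE 0.15) and fell 1.502-fold in the knockout against senescent control (-0.59, SE 0.15), the latter lost without senescent control replicate 1 (-0.42) or knockout replicate 1 (-0.53) or 2 (-0.66). Of 8 chondrocyte and bone markers 2 reached 1 CPM in each group, their sum was 191 to 237 CPM in control and 165.5 to 171 in senescent control, and IBSP was at 0 in both.

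Transmembrane collagens, the multiplexins and COL28A1 complete the members tested. COL13A1, found at cell junctions, measured 34.8 and 29.9 CPM in control, 26.1 and 24.6 in senescent control, 38.8 and 42.5 in the knockout, 20.8 and 22.5 in the wild type knock-in and 32.3 and 29.8 in the mutant knock-in, and it was called in all 6 comparisons. Its rise in the knockout against senescent control was 1.60-fold (log2 0.68, SE 0.11) and its fall in the wild type knock-in 1.88-fold (-0.91, SE 0.11), in every alternative tried. The other calls were smaller and less stable. The fall in senescent control (-0.35, SE 0.11) was lost in DESeq2 and without control replicate 1 (-0.22) or senescent control replicate 1 (-0.37) or 2 (-0.27). The rise from wild type to mutant knock-in (0.52, SE 0.11) was lost without wild type replicate 1 (0.45) or 2 (0.60) or mutant replicate 1 (0.45) or 2 (0.58). The fall in the mutant knock-in (-0.39, SE 0.11) and the rise in the knockout against control (0.33, SE 0.10) were lost without knockout replicate 2 (-0.35 and 0.30). COL25A1, a neuronal chain, measured 0 and 0.269 CPM in control, 0.110 and 0.228 in senescent control, 0.0577 and 0.209 in the knockout, 0.610 and 0.653 in the wild type knock-in and 1.67 and 2.41 in the mutant knock-in. It rose 14.3-fold from the knockout, with 1 and 4 counts, to the mutant knock-in (3.83, SE 0.71), or 3.22 and 4.96 on the log2 scale without knockout replicate 1 or 2. COL17A1, the hemidesmosome chain of epithelia, stayed between 0.320 and 1.203 CPM.

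COL15A1, a multiplexin of vessel and muscle basement membranes, measured 5.38 and 3.85 CPM in control, 0.877 and 1.00 in senescent control, 2.71 and 1.56 in the knockout, 1.34 and 1.35 in the wild type knock-in and 1.97 and 1.52 in the mutant knock-in. Control lay above and senescent control below all other libraries. It fell 4.86-fold in senescent control (log2 -2.28, SE 0.30), in every alternative tried, and the rise in the knockout against senescent control (1.16, SE 0.34) was lost in DESeq2 and without senescent control replicate 1 (1.08) or 2 (1.27) or knockout replicate 1 (0.72). COL18A1, the precursor of endostatin, ran from 69.8 to 100.2 CPM in control and 39.3 to 51.0 in the knock-ins, and its fall in the mutant knock-in against the knockout (-0.58, SE 0.17) was lost without knockout replicate 2 (-0.53) or mutant replicate 2 (-0.54). COL28A1, a chain of nerve sheaths, measured 2.32 and 3.36 CPM in control, 5.92 and 6.07 in senescent control, 6.29 and 8.40 in the knockout, 8.97 and 6.81 in the wild type knock-in and 13.1 and 12.3 in the mutant knock-in. Both control libraries were lowest and both mutant libraries highest, and the rise in senescent control was 2.11-fold (1.08, SE 0.22). Its rise in the mutant knock-in against the knockout (0.79, SE 0.19) was lost without knockout replicate 1 (0.57). The rise from wild type to mutant knock-in (0.70, SE 0.19) was lost in DESeq2 and without wild type replicate 2 (0.52) or mutant replicate 1 (0.64) or 2 (0.75).

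The 11 members with too few counts to test were COL2A1, COL4A4, COL6A5, COL6A6, COL9A1, COL9A3, COL19A1, COL20A1, COL22A1, COL23A1 and COL26A1, and with COL8A2 they are the 12 under 1 CPM in all groups. COL23A1 and COL26A1 had 1 count each. Taken library by library, members with at least 1 count numbered 32 and 32 of the 44 in control and 37 and 39 in senescent control. They numbered 35 and 35 in the knockout, 39 and 41 in the wild type knock-in and 40 and 41 in the mutant knock-in. Antisense and divergent transcripts beside collagen genes did not exceed 0.173 CPM in any library.

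Enzymes that modify, fold and export procollagen in the endoplasmic reticulum were called in both directions. In senescent control 7 of 23 rose and 6 fell (45% of all genes called), and in the knockout against senescent control 5 rose and 1 fell (15.8%). PLOD2, which hydroxylates telopeptide lysines for crosslinks, rose in senescent control (log2 1.56, SE 0.17), and SERPINH1, the collagen chaperone HSP47, fell (-0.91, SE 0.10). P4HA3, a prolyl hydroxylase subunit, fell by 1.29 on the log2 scale (SE 0.28) in senescent control and rose by 1.27 (SE 0.29) in the knockout. COLGALT2, a collagen galactosyltransferase, gave -0.84 (SE 0.16) and 1.27 (SE 0.16) in these comparisons. FKBP14, a prolyl isomerase of the same compartment, rose in the knockout (0.80, SE 0.17), and PLOD2 fell (-0.61, SE 0.17). Of the knockout calls, that of P4HA3 was lost without senescent control replicate 2 (0.98) or knockout replicate 2 (1.16), that of FKBP14 without senescent control replicate 1 (0.70) or knockout replicate 2 (0.73), and that of PLOD2 without senescent control replicate 1 (-0.68) or 2 (-0.53) or knockout replicate 1 (-0.54) or 2 (-0.70). In the mutant knock-in against the knockout 4 of these 23 genes rose and 13 fell, with a median log2 difference of -0.33 against 0.01 over all genes (48.4% of all genes called).

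Of 11 genes tested for propeptide cleavage and crosslinking, 2 rose and 7 fell in senescent control (81.8% called, against 45% of all genes, 19.7% higher and 25.3% lower), with a median of -0.47 against -0.03 over all genes. PCOLCE, which speeds removal of the C-propeptide, fell (log2 -1.36, SE 0.12), as did the crosslinking oxidases LOXL3 (-1.03, SE 0.19) and LOXL1 (-0.89, SE 0.13). ADAMTS14, an N-propeptidase, was higher by 0.88 (SE 0.33), a call lost without control replicate 1 (0.88) or 2 (0.94) or senescent control replicate 1 (0.90) or 2 (0.92). DESeq2 did not make this call. In the knockout against senescent control 4 rose and 3 fell (63.6%, against 15.8%). ADAMTS3, another N-propeptidase, fell (-1.52, SE 0.26), PCOLCE fell (-0.69, SE 0.13) and the oxidase LOXL4 rose (1.19, SE 0.14). ADAMTS14 was higher by 1.15 (SE 0.28), lost in DESeq2 and without senescent control replicate 1 (1.16) or 2 (1.14) or knockout replicate 1 (1.11) or 2 (1.18).

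Collagen receptors tie cells to the matrix, and collagen-degrading proteases cut or remove it. Of 9 receptors tested 3 rose and 1 fell in senescent control (44.4% called, against 45% of all genes), so their share was near that of all genes. ITGA2, a collagen-binding integrin subunit, rose by a log2 difference of 1.62 (SE 0.24; 2.21 without control replicate 2), as did its partner ITGB1 (0.72, SE 0.18), and DDR1, a collagen-binding kinase, fell (-0.67, SE 0.16). ITGA1 (0.71, SE 0.20) lost its call without senescent control replicate 2 (0.61), and a fit of the 2 groups alone called neither ITGB1 nor ITGA1. In the knockout 0 receptors rose and 2 fell in edgeR's test (22.2%, against 15.8%), ITGA2 (-0.93, SE 0.23) and the uptake receptor MRC2 (-0.48, SE 0.13), and leaving out any of the 4 libraries ended both calls, with -0.95, -0.91, -0.90 and -0.97 for ITGA2 and -0.48, -0.48, -0.45 and -0.53 for MRC2 without senescent control replicate 1 and 2 and knockout replicate 1 and 2. Of 7 proteases tested 4 rose and 1 fell in senescent control (71.4% called, against 45% of all genes, 19.7% higher and 25.3% lower). The collagenase MMP1 went from 125 and 137 CPM in control to 3049.7 and 3090.4 in senescent control and 562 and 577 in the knockout, a pattern that also held for the membrane protease MMP16 (log2 1.47, SE 0.15, then -0.84, SE 0.15). MMP14 (0.62, SE 0.12) and cathepsin K, CTSK (0.53, SE 0.09), rose in senescent control. MMP2 fell in the knockout (-0.50, SE 0.10), a call lost without knockout replicate 1 (-0.47).

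TGF-beta signalling, the pathway best known for raising collagen transcription in fibroblasts, had 3 of 15 genes higher and 7 lower in senescent control (66.7% called, against 45% of all genes), and 3 higher and 3 lower in the knockout against senescent control (40%, against 15.8%). CCN2, a TGF-beta target that promotes matrix production, measured 677 and 547 CPM in control, 239 and 309 in senescent control, 599.7 and 690.3 in the knockout, 364 and 405 in the wild type knock-in and 383 and 379 in the mutant knock-in. Control and knockout libraries lay above all others. It fell in senescent control (log2 -1.16, SE 0.14) and rose in the knockout (1.23, SE 0.14; edgeR adjusted p 4.28e-05 and 0.00011). The signal transducers SMAD3 (-0.88, SE 0.11) and SMAD4 (-0.63, SE 0.09) and the ligand TGFB2 (-0.57, SE 0.13) fell in senescent control, the last lost without senescent control replicate 1 (-0.37). The co-receptor TGFBR3 rose in the knockout (0.76, SE 0.09). SKIL, a repressor of the pathway, and the ligand TGFB1 were lower there (-0.75, SE 0.16, and -0.64, SE 0.19), and both calls were lost without senescent control replicate 1 (-0.75 and -0.59) or 2 (-0.75 and -0.68) or knockout replicate 1 (-0.77 and -0.58) or 2 (-0.74 and -0.70).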

How the data were processed

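RNA sequencing of 10 samples was analysed. The submitters' processing notes list Bowtie2, without a version, RSEM 1.2.12 and hg19. The deposited table gives raw counts for each Ensembl gene, as whole numbers that the authors did not normalize. How genes were annotated, whether strand was used and how reads matching several genes were handled: not given in the sources used here. Similar or overlapping genes are therefore uncertain. Groups came from the sample titles. Counts were analysed with edgeR 4.0.16 in R 4.3.3: filterByExpr with a minimum count of 10 (16760 genes), TMM scaling, 1 robust quasi-likelihood model over all 10 samples (5 residual degrees of freedom), F tests of either direction and Benjamini-Hochberg adjustment over all genes of a comparison. The SE is the log2 difference divided by the root of F, so it uses the spread of all groups. The procedure was tested on simulated data. Alternatives were other scalings, no filter, METTL3 left out, a replicate block, the 2 groups alone, DESeq2 1.42.0 and each library left out. Values in every sample are given for members with a mean of at least 100 CPM or a call with a log2 difference of at least 1, and up to 4 genes of each other list are named, those with the largest called differences in the first 2 comparisons. COL8A1, at 97.2 CPM, lies just outside the first limit and, with COL13A1, was given in full after its values were seen. Members and lists were chosen with earlier results of these data known. Transcript lengths are from GENCODE on GRCh38, which is not the authors' build, so no coordinates are given for their values.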

Additional observations from a re-analysis of the deposited data

How the results depend on the processing

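The 89 calls of collagen genes over the 6 comparisons gave 975 values under the alternatives, with several values from each fit. Of these values 851 kept direction and call, 124 kept direction and lost the call, and 0 reversed. The 38 calls named from other lists and METTL3 gave 417 such values, of which 370 were kept, 47 were lost and 0 reversed. Leaving out 1 library at a time gave 17 to 23 collagen calls for senescent control against control (21 with all libraries), 5 to 9 for the knockout against senescent control (11), 8 to 11 for the wild type knock-in against the knockout (10), 13 to 17 for the mutant knock-in against the knockout (18), 0 to 4 for mutant against wild type knock-in (7) and 11 to 22 for the knockout against control (22). Over all genes the same ranges were 5108 to 8974, 1198 to 1368, 3390 to 4150, 5873 to 6652, 123 to 1178 and 5014 to 9129, against 7549, 2646, 5584, 8119, 2103 and 7772 with all libraries. A group left with 1 library was assumed to vary like the others. A fit of the 2 groups alone gave 17 collagen calls and 5621 of all genes for the knockout against senescent control, 15 and 4078 for mutant against wild type knock-in, and 5108 of all genes for the knockout against control. No filter on low counts gave 12 collagen calls for mutant against wild type knock-in. Upper-quartile scaling turned 865 higher and 1238 lower genes of that comparison into 1056 and 773, and 3300 and 4472 of the knockout against control into 3988 and 3540. The cause of these differences was not tested. With the replicate number as a block, collagen calls were 20, 11, 12, 18, 8 and 20, and calls of all genes 7461, 2538, 5473, 8019, 1923 and 7686, in the order above. Deviations of samples with the same number correlated between -0.12 and 0.06 over the 10 pairs of groups, so the numbers were not treated as pairing the samples. With 2 libraries a group and levels under 1 CPM in several groups, COL4A3, COL4A4, COL8A2, COL9A2, COL11A2, COL17A1, COL21A1 and COL25A1 rest on few counts. COL10A1 had 5 and 2 counts in control, the group against which its rise in senescent control was measured.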
